A study of Mus musculus with 24 samples.

Results

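The 10 genes described here are 3 D-type cyclins (Ccnd1, Ccnd2, Ccnd3), 3 cyclin-dependent kinases (Cdk4, Cdk6, Cdk2) and 4 inhibitors of these kinases (Cdkn1a, Cdkn1b, Cdkn1c, Cdkn2c). They were chosen by name, through their Ensembl identifiers, from the 39017 genes in the count files, and 9 of the 10 had enough reads to be among the 14361 genes tested. Their RNA was measured by RNA-Seq in NIH 3T3, a mouse embryonic fibroblast line long used to study contact inhibition, the arrest of division once cells touch. There were 24 libraries, biological triplicates of 8 groups, made from separately transduced, pooled stable lines selected in G418 after infection with pBabeNeo retrovirus, so every group carried the vector. Groups differed in the protein expressed. EV carried the empty vector. TAZ4SA and YAP5SA are TAZ and YAP with alanines in place of the serines that the LATS1/2 kinases phosphorylate. TAZ-CAMTA1 and YAP-TFE3 are the fusion proteins of epithelioid hemangioendothelioma, and CAMTA1 and TFE3 are the full-length partners. All of these were kept confluent for 48 h except CAMTA1, which was sub-confluent, as was another empty vector group, EVsub. CAMTA1 was therefore compared with EVsub, and no group held CAMTA1 in confluent cells. Expression was stable in each line, so the values describe a lasting state and not an acute response.

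D-type cyclins bind and activate Cdk4 and Cdk6 in G1, the phase before DNA replication, and the active kinases phosphorylate the retinoblastoma protein, which then releases E2F transcription factors. Cdk2 acts later, with cyclins E and A, at the start of DNA replication. Of the inhibitors, Cdkn1a (p21), Cdkn1b (p27) and Cdkn1c (p57) form the CIP/KIP family, which binds cyclin-kinase complexes and blocks Cdk2 above all. Cdkn2c (p18) belongs to the INK4 family, which binds Cdk4 and Cdk6 alone. In confluent fibroblasts p27 protein is known to accumulate and cyclin D1 to decline, and p21 is best known as a transcriptional target of p53. RNA levels are what was measured here, and much of the known control of p27 acts on the protein.

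The libraries held 16471181 to 30132586 counts, with a median of 22298975. Values below are CPM, the read count scaled to a common library size after TMM normalization, or, where genes are compared with each other, CPM per kb of the gene's merged exons. All 12 fibroblast markers examined had reads in every library, although Lum fell to 0.505 CPM and Dcn to 38.1 CPM at their lowest. Of 12 markers of other cell types, Epcam, Adgre1 and Myod1 were at 0 in every library, and Krt18, Ptprc and Sox10 never passed 4 counts. The rest had more reads at their highest: Krt8 10 counts, Pecam1 13, Cdh1 23 and Cdh5 44. Des reached 145 counts (8.32 CPM) and Cd68 1557 (77.8 CPM). Libraries of the same group were not equally proliferative. The summed level of 20 proliferation genes (replication and mitosis genes such as Mki67, Mcm2 and Plk1) was 840.4, 1337.9 and 867.2 CPM in EV replicates 1 to 3 and 2806.5, 3973.9 and 1412.5 CPM in EVsub. EV replicate 2 and EVsub replicate 3 thus lay close to each other across the density contrast, and TAZ4SA replicate 3 (1494.9 CPM) stood above the others of its group (799.0 and 965.7 CPM). Scaling mattered in YAP5SA and TAZ4SA. TMM factors were 0.7726 to 0.8286 in YAP5SA and 0.8103 to 1.036 in TAZ4SA, against 1.002 to 1.087 in the other 6 groups. Scaling to library totals instead, an alternative chosen after seeing the data, shifted the median gene by -0.37 on the log2 scale in YAP5SA against EV and by -0.18 in TAZ4SA against EV, and it took the share of DE genes that were higher from 51% to 34.5% and from 54.1% to 41.9%.

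**Figure D1:**
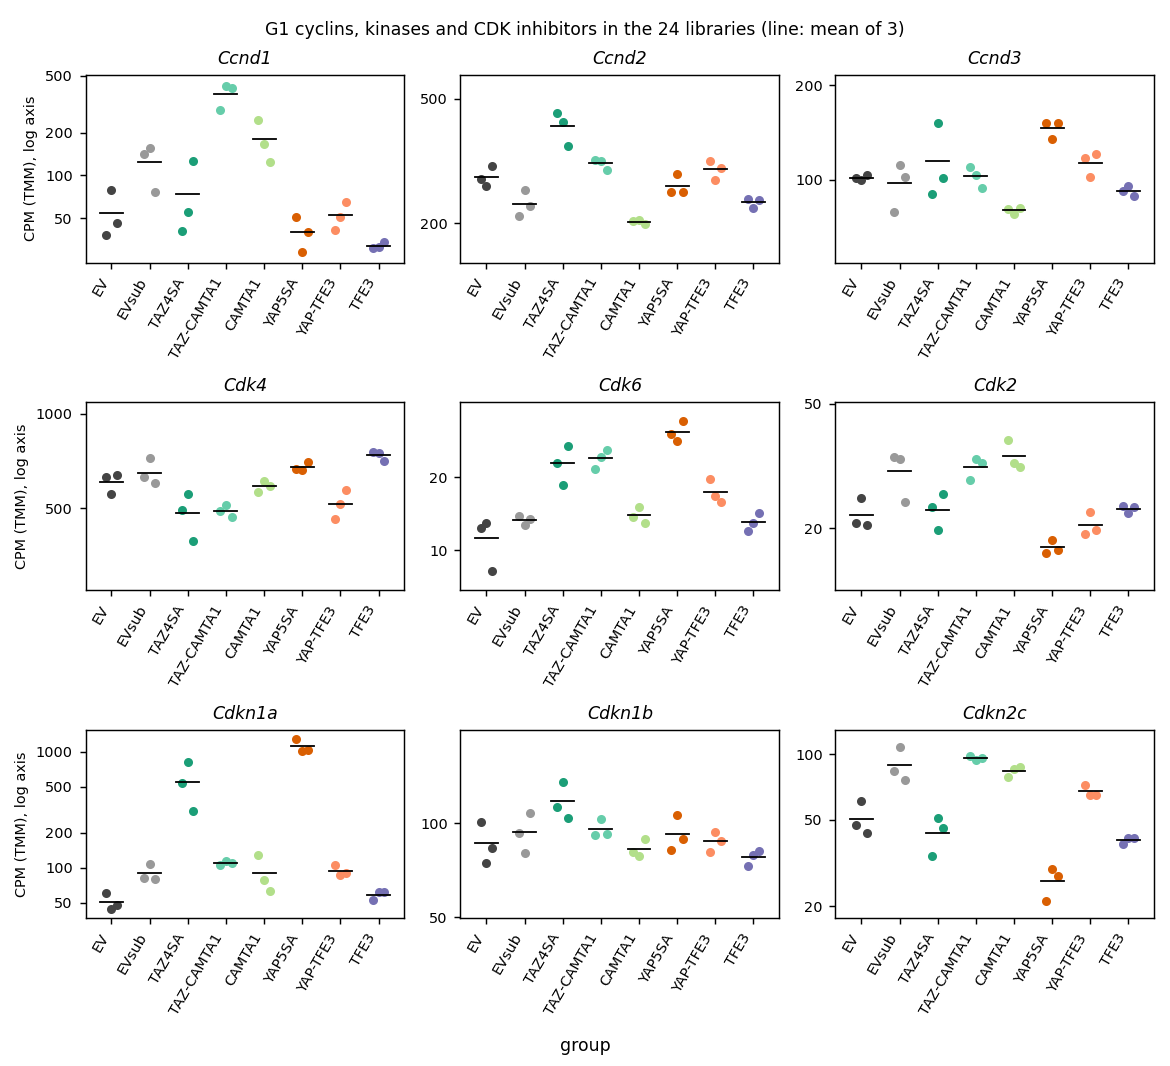
Level of the 9 tested genes in each of the 24 libraries, in CPM on a log axis, by group; points are libraries and the line is the mean of 3. Cdkn1a stands at 307.1 to 812.6 CPM in TAZ4SA and 1015.4 to 1294.4 CPM in YAP5SA, above every other library, and Ccnd1 at 289.1 to 426.0 CPM in TAZ-CAMTA1.

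Per length, Cdk4 was the most abundant of the 10 transcripts in every group except YAP5SA and TAZ4SA, with 187.0 ± 14.0 CPM per kb in EV (SD, n = 3). In YAP5SA Cdkn1a reached 314.2 ± 43.5 CPM per kb (SD, n = 3) and stood above Cdk4 at 208.5 ± 6.93, and in TAZ4SA the 2 genes had 155.7 ± 71.2 and 148.2 ± 25.4 CPM per kb, a difference within their spread. In EV the next were Ccnd2 at 28.1 to 32.4, then Cdkn1b at 18.9 ± 2.96 and Cdkn2c at 18.8 ± 3.37, which did not differ beyond their spread, and Cdkn1a at 14.3 ± 2.36 CPM per kb. Ccnd1 (11.6 ± 4.56) and Ccnd3 (11.6 ± 0.232) were equal in EV, Cdk2 had 3.54 ± 0.395, and Cdk6 was lowest with 0.801 ± 0.189 CPM per kb. Cdkn1c had 1 count in 1 EVsub library and 0 in the other 23 libraries. A count of 0 allows up to 3 counts, which are 0.0996 to 0.182 CPM at these depths, and the library with 1 count stood at 0.0356 CPM.

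The first question was what confluence alone did to these genes. In EVsub against EV, 5 of the 9 tested genes were DE, 4 higher and 1 lower, where 22.1% of all genes tested were DE (12.5% higher, 9.59% lower). Ccnd1, Cdkn2c, Cdkn1a and Cdk2 rose in sub-confluent cells and Ccnd2 fell. The count was 1 without EV replicate 3 and 2 without EV replicate 1, EVsub replicate 1 or EVsub replicate 2. Over all genes tested these fits called 1971, 2121, 2137 and 2098, in the order named, against 3173 with every library. Only Cdkn2c was called under each of the 13 alternatives for this contrast. These leave out the minimum log2 fold change of 1, which the Cdkn2c rise of 0.82 did not reach. Since RNA came from whole cultures, a change in the share of cycling cells and a change of RNA in each cell cannot be told apart.

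Against EV, 5 of 9 were DE in TAZ4SA, 4 higher and 1 lower, where 57.5% of all genes tested were DE (31.1% higher, 26.4% lower). In YAP5SA 5 were DE, 3 higher and 2 lower, where 71.2% were DE (36.3% higher, 34.9% lower). With library totals 7 members were DE in YAP5SA, 2 higher and 5 lower, where 3565 of all genes tested were higher and 6775 lower. Both TMM counts were near or below their backgrounds of 57.5% and 71.2%. In TAZ-CAMTA1 5 were DE, all higher, where 21.5% were DE (12.5% higher, 8.98% lower), and in YAP-TFE3 2 were, both higher, where 15.3% were (10.6% higher, 4.74% lower). These comparisons share the same 3 EV libraries. No member was DE in TFE3 against EV by edgeR (3.38% of all genes tested, 2.36% higher and 1.02% lower). There 4 members and 2055 of the 14361 genes tested had an unadjusted p under 0.05, and DESeq2 called 0 members and 711 genes. No member was DE in CAMTA1 against EVsub by edgeR either (2.18%, 1.29% higher and 0.891% lower). In that comparison 0 members and 2612 genes had an unadjusted p under 0.05, and DESeq2 called 0 members and 640 genes. The heat map of fold changes sets all comparisons side by side.

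**Figure D2:**
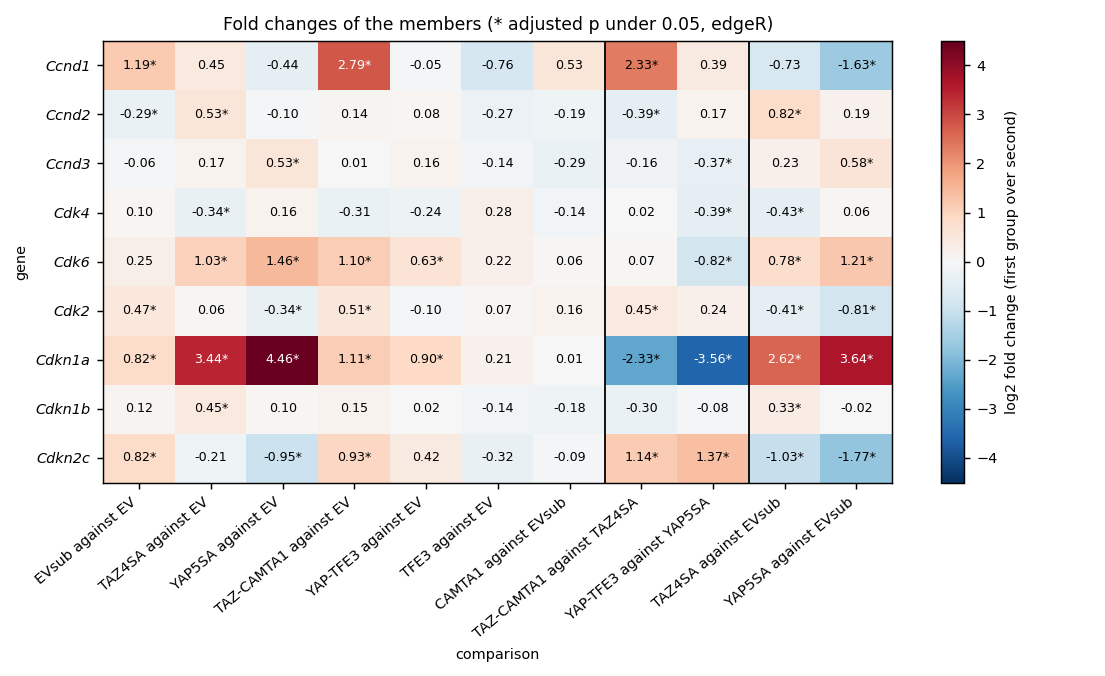
Log2 fold change of the 9 tested genes (rows) in the 11 comparisons (columns), first group over second; red is higher, blue is lower, and an asterisk marks an adjusted p under 0.05 (edgeR). Cdkn1a spans 4.46 in YAP5SA against EV to -3.56 in YAP-TFE3 against YAP5SA, and the columns of TFE3 and CAMTA1 hold no asterisk.

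Ccnd1 (ENSMUSG00000070348; mm10 chromosome 7, 144929931 to 144939925, minus strand) encodes cyclin D1, the D-type cyclin that growth factors induce in fibroblasts. It had 38.3, 78.9 and 46.3 CPM in EV and 140.6, 155.1 and 76.1 CPM in EVsub. The lowest EVsub library lay just under the highest EV library, so the groups overlapped. The log2 fold change was 1.19 (standard error 0.35, 2.28-fold, adjusted p = 0.0192, edgeR). The call was lost without EV replicate 1 (0.0986), EV replicate 3 (0.0842), EVsub replicate 1 (0.0654) or EVsub replicate 2 (0.0927), given as adjusted p by edgeR, and over all 13 alternatives the adjusted p ran from 2.75e-05 to 0.0986. The difference was 1.55 without EV replicate 2, the highest EV library, and 1.44 without EVsub replicate 3, the lowest EVsub library. Leaving out either of these libraries widens the difference by construction.

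TAZ-CAMTA1 cells had the highest Ccnd1 of the 8 groups although they were confluent, with 289.1, 426.0 and 412.0 CPM. Every one of these libraries was above every library of the other 7 groups. Against EV the rise was 2.79 on the log2 scale (standard error 0.37, 6.90-fold, adjusted p = 9.29e-06, edgeR), and it was called in 13 of 13 alternatives at 2.59 to 3.15. TAZ-CAMTA1 was also higher than TAZ4SA, by 2.33 (standard error 0.36, 5.04-fold, adjusted p = 1.69e-05, edgeR). TAZ4SA itself had 40.5, 55.6 and 126.9 CPM, 2 libraries in the range of EV and replicate 3 above it. Its difference from EV was 0.45 (adjusted p = 0.282, edgeR) and turned to -0.18 without replicate 3. In these groups the library with the highest Ccnd1 was also the library with the highest proliferation sum in 5 of 8 groups, and the lowest matched in 7 of 8. The part of proliferation in the Ccnd1 differences was not tested.

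In the other confluent groups no difference from EV passed the threshold. YAP5SA had 50.8, 29.2 and 40.4 CPM, which overlapped EV (log2 fold change -0.44, adjusted p = 0.27, edgeR). Against EVsub, whose libraries were all higher, Ccnd1 fell by 1.63 in YAP5SA (log2, standard error 0.36, adjusted p = 0.000406, edgeR). YAP-TFE3 had 41.2, 51.0 and 65.4 CPM, and its difference was -0.05 from EV (adjusted p = 0.951, edgeR) and 0.39 from YAP5SA (adjusted p = 0.33, edgeR). TFE3 had 30.8, 31.3 and 34.2 CPM, each below every EV library, at a log2 difference of -0.76 with an adjusted p of 0.326 (edgeR), past the threshold in 1 of 13 alternatives (0.0476 to 0.717). Sub-confluent CAMTA1 cells had the second highest mean, with 247.0, 167.2 and 124.2 CPM, and overlapped EVsub (0.53, adjusted p = 0.421, edgeR).

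Ccnd2 (ENSMUSG00000000184; chromosome 6, 127125162 to 127152193), the D-type cyclin that made up most of the family in confluent EV cells, rose in TAZ4SA, where Ccnd1 did not pass, and moved against Ccnd1 in EVsub. Its levels were 277.2, 264.0 and 305.1 CPM in EV and 449.6, 421.2 and 354.0 CPM in TAZ4SA, all of them above EV. The rise in TAZ4SA was 0.53 (standard error 0.10, adjusted p = 0.00012, edgeR) and was called in 13 of 13 alternatives. TAZ-CAMTA1 had 318.7, 317.1 and 296.5 CPM, lower than TAZ4SA (fell by 0.39 in log2 terms, adjusted p = 0.00242, edgeR), a call lost only with the 2 groups alone in the fit (0.064; range 0.000228 to 0.064). In EVsub it was lower than in EV, at 210.8, 255.2 and 227.7 CPM (fell by 0.29, adjusted p = 0.0453, edgeR), a call that held in 6 of 13 alternatives with adjusted p from 0.00911 to 0.198. In YAP5SA the difference from EV was -0.10 (adjusted p = 0.4, edgeR), and with library totals in place of TMM Ccnd2 fell by 0.47 (adjusted p = 3.39e-05, edgeR), more than the median gene.

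Ccnd3 (ENSMUSG00000034165; chromosome 17, 47505051 to 47599691) varied least of the cyclins. It had 101.0, 99.5 and 103.5 CPM in EV and 151.5, 134.8 and 151.7 CPM in YAP5SA, whose libraries all lay above EV. The rise was 0.53 (standard error 0.14, adjusted p = 0.00241, edgeR), and it did not pass with library totals (0.16, adjusted p = 0.253, edgeR), where it was still above the median gene. Its difference between YAP-TFE3 and YAP5SA was -0.37 (adjusted p = 0.0265, edgeR) and held in 8 of 13 alternatives (0.00626 to 0.946), lost with library totals (-0.01), with a minimum of 10 counts, and without YAP5SA replicate 1 or 3 or YAP-TFE3 replicate 2. In TAZ4SA replicate 2 alone was high (90.0, 151.7 and 101.5 CPM).

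Summed per length, the 3 cyclins together had 53.1 ± 3.61 CPM per kb in EV, 62.0 ± 10.4 in EVsub and 124.5 ± 14.8 in TAZ-CAMTA1 (SD, n = 3 each). Ccnd1 made up 21.5% ± 7.23 of that sum in EV, 41.7% ± 9.36 in EVsub, 54.4% ± 8.26 in CAMTA1 and 63.7% ± 5.82 in TAZ-CAMTA1, and 15.9% ± 3.91 in YAP5SA. Ccnd2 was the leading cyclin in every confluent group except TAZ-CAMTA1 (26.8% ± 3.98). Its share was 56.6% ± 5.78 in EV, 60.6% ± 11.1 in TAZ4SA, 58.9% ± 1.25 in TFE3, 52.8% ± 5.21 in YAP5SA and 56.8% ± 3.42 in YAP-TFE3. Ccnd3 had its highest share in YAP5SA, 31.3% ± 1.70, where the sum was 53.2 ± 1.37 CPM per kb, close to EV. The sums and shares are descriptions and were not tested.

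**Figure D3:**
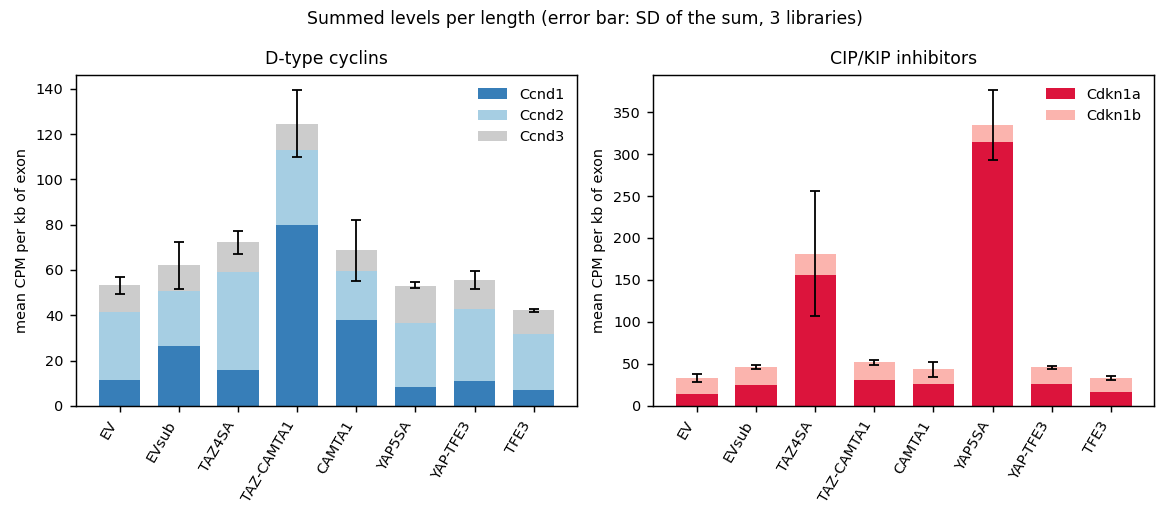
Stacked mean level per length (CPM per kb of exon) of the D-type cyclins (left) and of Cdkn1a and Cdkn1b (right) by group; error bars are the SD of the sum over 3 libraries. The cyclin sum is highest in TAZ-CAMTA1 (124.5) through Ccnd1, and the inhibitor sum is highest in YAP5SA (334.5) and TAZ4SA (181.4) through Cdkn1a.

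Cdk4 (ENSMUSG00000006728; chromosome 10, 127063534 to 127067920, plus strand), a kinase partner of the D-type cyclins, supplied at least 98.4% of the summed Cdk4 and Cdk6 level per length in every library. The RefSeq promoter table (GRCm38.p6) held 10 promoters of 7 of the genes, from 250 bases before to 50 after a start site, and these were searched on both strands for 4 motifs. The motifs were GGAATG of TEAD factors, TGANTCA of AP-1, the E-box CACGTG, which MiT/TFE factors such as TFE3 and also MYC bind, and TTCCCGC or TTGGCGC of E2F. They are shown for Cdk4 because its promoter held CACGTG 4 times, which only 8 of 32851 promoters (0.0244%) did at least as often, while 7.15% held it at all. The run from the first match to the start site, at chr10:127063352-127063534 on the plus strand, reads as follows with the E-boxes in capitals.
Cdk4: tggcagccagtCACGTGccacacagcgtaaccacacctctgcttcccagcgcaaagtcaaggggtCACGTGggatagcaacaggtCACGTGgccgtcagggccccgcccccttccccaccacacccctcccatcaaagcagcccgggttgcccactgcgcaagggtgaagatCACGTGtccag
Matches are a description of letters in this window and show no binding.

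Cdk4 had 628.7, 555.5 and 638.9 CPM in EV and 757.4, 748.6 and 705.5 CPM in TFE3 cells, every TFE3 library above every EV library. The log2 difference of 0.28 (standard error 0.12) missed the threshold (adjusted p = 0.247, edgeR) and passed it in 1 of 13 alternatives, the fit of the 2 groups alone (range 0.0393 to 0.519). YAP-TFE3 had 461.7, 513.8 and 572.8 CPM, which overlapped EV (-0.24, adjusted p = 0.196, edgeR). Neither of the 2 groups that express TFE3 sequence thus differed from EV past the threshold in the main fit, and YAP-TFE3 was not tested against TFE3. TAZ4SA had 494.5, 556.6 and 393.0 CPM and was lower than EV (fell by 0.34, standard error 0.12, adjusted p = 0.017, edgeR), a call lost in 4 of 13 alternatives: without EV replicate 1 or 3, without TAZ4SA replicate 3 (-0.21, adjusted p = 0.102, edgeR) and with the 2 groups alone (range 7.24e-05 to 0.102). In TAZ-CAMTA1, with 490.3, 510.8 and 467.6 CPM, every library was below EV but the difference of -0.31 did not pass (adjusted p = 0.0594, edgeR), and it passed in 6 of 13 alternatives (adjusted p from 0.0155 to 0.187). YAP5SA had 665.9, 663.1 and 703.4 CPM, a log2 difference from EV of 0.16 (adjusted p = 0.231, edgeR) that turned to -0.22 with library totals (0.0479; range 0.0479 to 0.611), where the median gene moved by -0.37. Cdk4 overlaps Tspan31 on the other strand, and the counting is not stated to have used strand.

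Cdk6 (ENSMUSG00000040274; chromosome 5, 3341485 to 3531008), the less abundant kinase of the pair, rose in every confluent group that expressed TAZ, YAP or a fusion protein. It had 12.4, 13.0 and 8.19 CPM in EV and 13.9, 12.7 and 13.4 CPM in EVsub, values that overlapped (0.25, adjusted p = 0.279, edgeR). In YAP5SA it had 30.2, 28.1 and 34.0 CPM, a rise of 1.46 over EV (standard error 0.16, 2.75-fold, adjusted p = 3.6e-08, edgeR). In TAZ-CAMTA1 it had 21.7, 24.3 and 25.9 CPM (1.10, 2.14-fold, adjusted p = 2.16e-05, edgeR), and in TAZ4SA 22.9, 18.6 and 26.9 CPM (1.03, 2.04-fold, adjusted p = 9.88e-06, edgeR). All these libraries were above all EV libraries, and these calls held in 13 of 13 alternatives each. The rise in YAP-TFE3, with 19.7, 16.7 and 15.8 CPM, was 0.63 (adjusted p = 0.00679, edgeR) and was lost without EV replicate 3 (0.45, adjusted p = 0.0633, edgeR), without YAP-TFE3 replicate 1 (0.51, adjusted p = 0.0815, edgeR) and in the fit of the 2 groups alone (0.0502), over a range from 0.00208 to 0.0815. YAP-TFE3 was lower than YAP5SA (fell by 0.82, adjusted p = 5.77e-05, edgeR), and TAZ-CAMTA1 and TAZ4SA differed by 0.07 (standard error 0.15, adjusted p = 0.721, edgeR). In TFE3 (12.0, 13.0 and 14.2 CPM) and CAMTA1 (13.7, 15.1 and 13.0 CPM) no difference passed (adjusted p = 0.6 and 0.859, edgeR). Its promoter held CACGTG once, at chr5:3343662-3343689 on the plus strand, in capitals here.
Cdk6: ttctgcggcccCACGTGggtgaaccccc

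Cdk2 (ENSMUSG00000025358; chromosome 10, 128697939 to 128705031, minus strand) had its highest means in EVsub, CAMTA1 and TAZ-CAMTA1, the 3 groups with the highest proliferation sums. It had 20.8, 24.9 and 20.5 CPM in EV and 33.8, 33.2 and 24.3 CPM in EVsub, where replicate 3 fell inside the EV range. The rise was 0.47 (standard error 0.13, adjusted p = 0.0136, edgeR) and held in 8 of 13 alternatives. It was lost without EV replicate 1 (0.0625), EV replicate 3 (0.0702), EVsub replicate 1 (0.0771) or EVsub replicate 2 (0.0681) and in the fit of the 2 groups alone (0.0979), given as adjusted p by edgeR, over a range from 0.00132 to 0.0979. TAZ-CAMTA1 had 28.6, 33.3 and 32.2 CPM, above every EV library (0.51, adjusted p = 0.0073, edgeR), and this held in 13 of 13 alternatives. YAP5SA had 16.7, 18.4 and 17.0 CPM, the lowest of the groups, below EV (fell by 0.34, adjusted p = 0.0269, edgeR) and further below EVsub (fell by 0.81, adjusted p = 1.54e-05, edgeR). The difference from EV was lost without EV replicate 2 (-0.25, adjusted p = 0.138, edgeR), YAP5SA replicate 1 (0.0779) or YAP5SA replicate 3 (0.0659) and without the filter on low counts (0.0556), over a range from 0.000328 to 0.138. Cdk2 and Cdkn2c are the members whose promoters held an E2F motif, present in 6.81% of all promoters, and they are shown for that reason with the motif in capitals, at chr10:128705052-128705202 and chr4:109666764-109666792, both on the minus strand.
Cdk2: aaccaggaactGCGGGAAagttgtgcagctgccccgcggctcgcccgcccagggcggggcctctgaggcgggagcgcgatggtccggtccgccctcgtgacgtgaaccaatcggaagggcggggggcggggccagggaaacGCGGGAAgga
Cdkn2c: ggggcccggccTTCCCGCtcccgcggcgc
Ccnd3 held the TEAD motif once in its second promoter, and 14.7% of all promoters held it. No AP-1 match was found in these windows, where 7.81% of all promoters held it, and the windows of Cdkn1a and Cdkn1b held none of the 4 motifs. The second promoter of Cdkn2c held CACGTG once, after its start site.

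Cdkn1a (ENSMUSG00000023067; chromosome 17, 29090976 to 29100727) made the largest changes of the 10 genes. It had 60.2, 44.2 and 48.0 CPM in EV. In YAP5SA it had 1294.4, 1015.4 and 1039.3 CPM, a log2 rise of 4.46 (standard error 0.29, 22.0-fold, adjusted p = 1.85e-11, edgeR). In TAZ4SA it had 539.5, 812.6 and 307.1 CPM, a rise of 3.44 (standard error 0.27, 10.9-fold, adjusted p = 1.38e-09, edgeR). No library of these groups came near EV, and TAZ4SA replicates spanned more than those of YAP5SA, with replicate 3, the library with the highest proliferation sum and the highest Ccnd1 of its group, at the bottom. Both calls held in 13 of 13 alternatives, at 4.08 to 4.60 in YAP5SA and 3.06 to 3.73 in TAZ4SA. Across the 8 groups the library with the highest Cdkn1a also had the highest proliferation sum in 4, and the lowest matched in 5. The part of proliferation in the Cdkn1a differences was not tested.

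In the groups with fusion proteins Cdkn1a rose less. TAZ-CAMTA1 had 104.8, 114.7 and 109.7 CPM, above EV by 1.11 (standard error 0.25, 2.16-fold, adjusted p = 0.003, edgeR). YAP-TFE3 had 105.7, 87.3 and 91.0 CPM, above EV by 0.90 (standard error 0.25, 1.86-fold, adjusted p = 0.0175, edgeR). All 6 fusion libraries were above the EV libraries and far below the full-length mutants. The call in YAP-TFE3 was lost without EV replicate 2 (0.0674), EV replicate 3 (0.0727) or YAP-TFE3 replicate 1 (0.0947), given as adjusted p by edgeR, over a range from 9.62e-05 to 0.0947. Directly compared, TAZ-CAMTA1 was 5.04-fold lower than TAZ4SA (a log2 difference of -2.33, adjusted p = 2.78e-07, edgeR) and YAP-TFE3 was 11.8-fold lower than YAP5SA (-3.56, adjusted p = 3.27e-10, edgeR). EVsub, with 81.2, 107.2 and 80.8 CPM, was also above every EV library (0.82, standard error 0.25, adjusted p = 0.0233, edgeR). That call was lost without EV replicate 2 (0.0807), EV replicate 3 (0.0829) or EVsub replicate 2 (0.115), over a range of adjusted p from 0.000339 to 0.115 (edgeR). TFE3, with 52.6, 61.7 and 61.5 CPM, and CAMTA1, with 129.1, 78.7 and 63.7 CPM, overlapped their controls (adjusted p = 0.813 and 0.988, edgeR).

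In the groups with high Cdkn1a, markers of another cell type moved as well. The summed level of the 12 markers of other cell types was 3.29 to 4.35 CPM in EV, 17.2 to 64.4 CPM in TAZ4SA and 50.4 to 82.8 CPM in YAP5SA. Most of it was Cd68, a lysosomal protein of macrophages found at lower levels in other cells (3.18 CPM in EV, 40.6 in TAZ4SA and 66.9 in YAP5SA), while Adgre1, which defines macrophages, was at 0 in every library and Ptprc, common to blood cells, never passed 4 counts. In TAZ4SA against EV 3 of 4 tested markers of other cell types rose and 1 fell, and the same counts held in YAP5SA. In TAZ-CAMTA1 and YAP-TFE3 3 rose in each, at summed levels of 4.65 to 6.87 and 5.01 to 7.12 CPM. Fibroblast markers fell in 7 of 12 and rose in 1 of 12 in TAZ4SA, and 7 fell and 2 rose in YAP5SA, with Dcn at 54.1 CPM in YAP5SA against 2433.3 CPM in EV. Of all genes tested 57.5% were DE in TAZ4SA (31.1% higher, 26.4% lower) and 71.2% in YAP5SA (36.3% higher, 34.9% lower). The shares were 21.5% in TAZ-CAMTA1 and 15.3% in YAP-TFE3. The part of these markers in the Cdkn1a difference was not tested.

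Cdkn1b (ENSMUSG00000003031; chromosome 6, 134920401 to 134925513) changed little with density. It had 100.9, 74.4 and 83.1 CPM in EV and 92.9, 80.5 and 107.4 CPM in EVsub, overlapping ranges with a log2 difference of 0.12 (standard error 0.13, adjusted p = 0.554, edgeR). It rose in TAZ4SA, at 112.5, 135.7 and 104.0 CPM (0.45, standard error 0.13, adjusted p = 0.00522, edgeR). The call was lost with library totals (0.25, adjusted p = 0.0867, edgeR) and in the fit of the 2 groups alone (0.39, adjusted p = 0.0811, edgeR), over a range from 0.0015 to 0.0867. No other comparison with EV called it, and in YAP5SA (82.1, 106.3 and 89.1 CPM) the difference of 0.10 turned to -0.28 with library totals. Of the summed Cdkn1a and Cdkn1b level per length, Cdkn1b was 57.0% ± 0.44 in EV, 40.4% ± 0.803 in TAZ-CAMTA1, 15.5% ± 4.86 in TAZ4SA and 6.18% ± 1.42 in YAP5SA (SD, n = 3). Cdkn1b led in EV and TFE3 (51.0%) and Cdkn1a in the other 6 groups, by most in TAZ4SA and YAP5SA, where the sum went from 33.2 ± 5.31 CPM per kb in EV to 181.4 ± 74.7 and 334.5 ± 41.4 (a description, not tested).

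Cdkn1c (ENSMUSG00000037664; chromosome 7, 143458339 to 143461050) lies in an imprinted cluster. Of 6 neighbours examined, Phlda2 was at 0 in all 24 libraries and Slc22a18 at 0 in 13 with at most 6 counts, while 3 had enough reads to be tested. Of these, Cd81 had 246.3 CPM in EV and rose in YAP5SA (1.67, adjusted p = 3.32e-09, edgeR), TAZ4SA (0.99, adjusted p = 1.06e-05, edgeR) and YAP-TFE3 (0.51, adjusted p = 0.024, edgeR), and Tssc4 rose in YAP5SA (1.14, adjusted p = 4.89e-06, edgeR). Reads were thus absent or few at Cdkn1c, Phlda2 and Slc22a18 and present at Nap1l4, Cd81 and Tssc4. Kcnq1ot1, the other neighbour, had no values here, and imprinting itself was not tested.

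Cdkn2c (ENSMUSG00000028551; chromosome 4, 109660876 to 109667189, minus strand), an inhibitor of Cdk4 and Cdk6, also had its highest means in TAZ-CAMTA1, EVsub and CAMTA1. It had 47.1, 60.7 and 43.5 CPM in EV and 83.4, 107.8 and 75.8 CPM in EVsub, with every EVsub library above every EV library. The rise was 0.82 (standard error 0.15, 1.77-fold, adjusted p = 0.000488, edgeR). TAZ-CAMTA1 had 98.0, 94.1 and 96.0 CPM, a rise of 0.93 over EV (standard error 0.15, 1.90-fold, adjusted p = 9.04e-05, edgeR). YAP5SA had 21.2, 29.7 and 27.6 CPM, below every library of the other groups, and was lower than EV (fell by 0.95, standard error 0.15, 1.93-fold lower, adjusted p = 9.68e-06, edgeR). These 3 calls held in 13 of 13 alternatives each. The 13 leave out the minimum log2 fold change of 1, and all 3 changes were smaller than it.

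The fusion proteins and the full-length mutants lay apart in Cdkn2c as well, in the opposite direction to Cdkn1a. TAZ4SA had 34.1, 51.0 and 45.6 CPM, and TAZ-CAMTA1 was higher by 1.14 (standard error 0.15, 2.21-fold, adjusted p = 2.1e-06, edgeR). YAP-TFE3 had 72.4, 65.2 and 64.8 CPM and was higher than YAP5SA by 1.37 (standard error 0.15, 2.58-fold, adjusted p = 6.82e-08, edgeR). Against EV its difference of 0.42 did not pass (adjusted p = 0.06, edgeR), although each library was above EV, and it passed in 3 of 13 alternatives (adjusted p from 0.0157 to 0.266). CAMTA1 (78.5, 85.1 and 87.5 CPM) and TFE3 (38.5, 41.4 and 41.0 CPM) did not differ from their controls past the threshold (adjusted p = 0.777 and 0.321, edgeR). Of the other INK4 genes, Cdkn2a and Cdkn2b, neighbours on chromosome 4, were at 0 in all 24 libraries, while Cdkn2d (p19) rose in YAP5SA from 6.78 to 28.9 CPM (2.09, adjusted p = 2.57e-07, edgeR) and in TAZ4SA to 22.1 CPM (1.70, adjusted p = 9.17e-06, edgeR). The INK4 genes present thus moved in opposite directions in YAP5SA.

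Compared directly, the fusion proteins and the full-length mutants differed in 5 of 9 members each, counts near or below the shares of all genes tested. In TAZ-CAMTA1 against TAZ4SA 3 were higher (Ccnd1, Cdk2, Cdkn2c) and 2 lower (Ccnd2, Cdkn1a), where 54.7% of all genes tested were DE (26.6% higher, 28.1% lower). By TMM scaling, in YAP-TFE3 against YAP5SA 1 was higher (Cdkn2c) and 4 lower (Cdkn1a, Cdk6, Cdk4, Ccnd3), where 70.9% were DE (36.4% higher, 34.5% lower). This balance turned with the scaling, to 4 higher (Cdkn2c, Ccnd2, Cdk2, Cdkn1b) and 2 lower (Cdkn1a, Cdk6) with library totals. Over all genes tested 7066 were then higher and 3386 lower, so 67.6% of DE genes were higher, against 51.4% with TMM. With at least 10 counts in every library the members were 3 and 3, and 4403 genes were higher and 4103 lower. The differences of Cdk4 and Ccnd3 did not pass with library totals (Cdk4 -0.39, adjusted p = 0.00473, against -0.03, adjusted p = 0.775, edgeR; range 0.000784 to 0.775). Set against sub-confluent EVsub, 7 of 9 were DE in confluent TAZ4SA (4 higher and 3 lower, against 27.7% and 25.5% of all genes tested, 53.2% together) and 6 in YAP5SA (3 higher and 3 lower, against 33.9% and 34.9%, 68.8% together). With library totals these became 3 higher and 3 lower in TAZ4SA and 2 higher and 5 lower in YAP5SA. Over all genes tested library totals gave 2905 higher and 4777 lower in TAZ4SA, and 3147 higher and 6999 lower in YAP5SA. The TMM count in YAP5SA was near the share of all genes tested. Cdkn1a and Cdk6 were higher than in EVsub in both (Cdkn1a by 2.62 and 3.64, Cdk6 by 0.78 and 1.21), and Cdkn2c and Cdk2 were lower in both (Cdkn2c -1.03 and -1.77, Cdk2 -0.41 and -0.81). In TAZ4SA the fall of Cdk2 was lost in 4 of 13 alternatives and the rise of Cdkn1b (0.33, adjusted p = 0.0372, edgeR) in 8 of 13.

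The rest of the pathway gives the setting. Of the 20 proliferation genes, 20 rose in EVsub (median log2 fold change 1.78, against 0.02 over all genes tested), with Birc5 (2.50) and the mitotic kinase Plk1, from 13.3 to 72.8 CPM (2.46), highest. In TAZ-CAMTA1 10 rose and 0 fell (median 1.09), led by the ribonucleotide reductase subunit Rrm2 (1.67, adjusted p = 0.00283, edgeR). Of all genes tested 22.1% were DE in EVsub and 21.5% in TAZ-CAMTA1. In TAZ4SA 6 rose and 4 fell (median 0.23), and in YAP5SA 8 rose and 3 fell (median 0.15), shares below the 57.5% and 71.2% of all genes tested. In both, the mitotic kinase Aurka (1.41 and 1.69) was among the rises and the replication helicase subunit Mcm6 (-0.84 and -1.12) among the falls. In YAP-TFE3, TFE3 and CAMTA1 edgeR called 0 of 20, with 1, 0 and 0 at an unadjusted p under 0.05 and 0 by DESeq2 in each. Of all genes tested 3895, 2055 and 2612 had an unadjusted p under 0.05, and DESeq2 called 2590, 711 and 640. Against EVsub 19 of 20 fell in TAZ4SA and 17 in YAP5SA, where 1, Rrm1, rose (0.55, adjusted p = 0.0328, edgeR). The shares of all genes tested that were DE against EVsub were 53.2% in TAZ4SA (25.5% lower) and 68.8% in YAP5SA (34.9% lower).

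**Figure D4:**
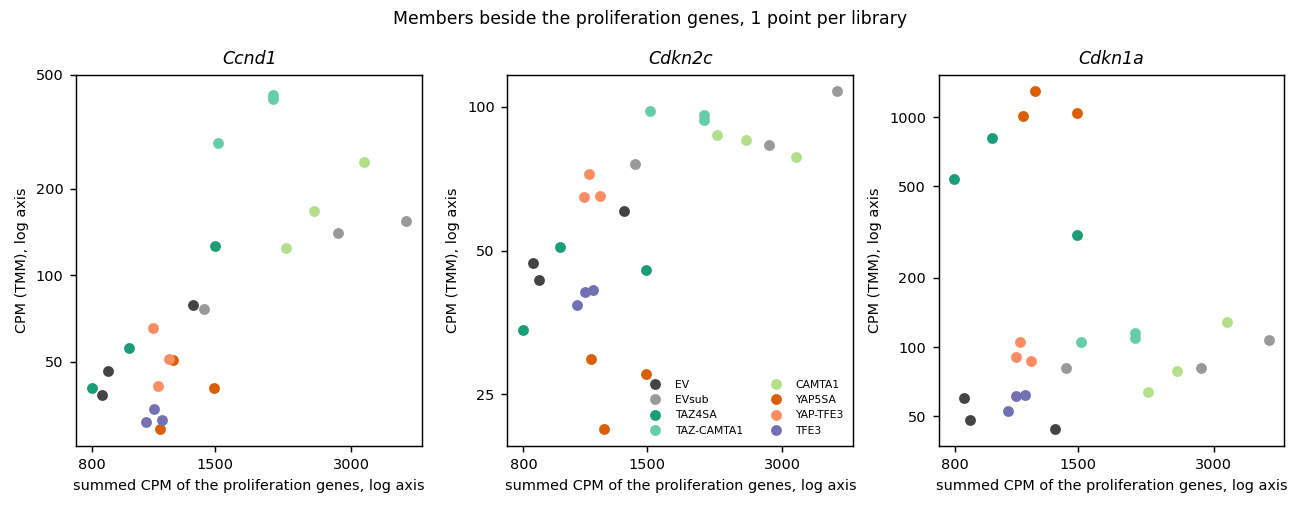
Ccnd1, Cdkn2c and Cdkn1a (CPM, log axis) against the summed CPM of 20 proliferation genes (log axis), with a point for each of the 24 libraries, coloured by group. EV replicate 2 (1337.9 CPM) and EVsub replicate 3 (1412.5 CPM) lie side by side for Ccnd1, at 78.9 and 76.1 CPM, and the YAP5SA libraries lie lowest for Cdkn2c and highest for Cdkn1a.

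Among 13 RB and E2F genes, 7 rose and 1 fell in EVsub (median 0.32), with the repressors E2f8 (1.86, adjusted p = 0.000735, edgeR) and E2f7 (1.82, adjusted p = 0.0016, edgeR) highest among those averaging at least 50 counts and the pocket protein Rbl2, an RB relative of resting cells, lower (fell by 0.60, adjusted p = 0.000264, edgeR). In TAZ-CAMTA1 5 rose and 1 fell (median 0.41), again with E2f7 up (2.23, adjusted p = 0.000175, edgeR) and Rbl2 down (-0.32, adjusted p = 0.0281, edgeR). Rb1, the retinoblastoma gene itself, rose from 14.1 CPM in EV to 39.9 in TAZ4SA (1.5, adjusted p = 1.97e-07, edgeR) and 38.2 in YAP5SA (1.44, adjusted p = 1.37e-07, edgeR). In TAZ4SA 3 of the list rose and 2 fell (median 0.15), and in YAP5SA 4 rose and 7 fell (median -0.32), among them Rbl2 (-1.27) and Rbl1 (-1.23), where 57.5% and 71.2% of all genes tested were DE. In YAP-TFE3 3 rose and 0 fell (median 0.03). Shares over all genes tested were 22.1% DE in EVsub, 21.5% in TAZ-CAMTA1 and 15.3% in YAP-TFE3. In TFE3 and CAMTA1 edgeR called 0 of 13, with 2 at an unadjusted p under 0.05 in each and 2 and 0 by DESeq2. Of all genes tested 2055 and 2612 had an unadjusted p under 0.05, and DESeq2 called 711 and 640.

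The list of 20 other G1 and G1/S regulators had 17 tested genes. In EVsub 8 rose and 1 fell (median 0.71), led by Ccna2, the S-phase cyclin, at 146.7 CPM against 32.0 (2.20, adjusted p = 0.000214, edgeR). TAZ-CAMTA1 had 8 rises and 0 falls (median 0.59), among them Ccna2 (1.41, adjusted p = 0.00681, edgeR) and the replication inhibitor Gmnn (1.15, adjusted p = 0.00518, edgeR). All genes tested had 22.1% DE in EVsub, 21.5% in TAZ-CAMTA1, 15.3% in YAP-TFE3 and 3.38% in TFE3. TAZ4SA had 5 rises and 3 falls (median 0.36), and YAP5SA 5 and 5 (median 0.20), shares below the 57.5% and 71.2% of all genes tested. Myc, an inducer of G1 entry, rose from 51.2 CPM in EV to 208.5 in TAZ4SA (2.03, adjusted p = 9.53e-10, edgeR) and 137.7 in YAP5SA (1.43, adjusted p = 3.92e-08, edgeR), and it fell in TFE3 to 32.4 CPM (-0.66, adjusted p = 0.0187, edgeR). Skp2, which marks p27 for degradation, fell in YAP5SA to 9.20 CPM (-1.12, adjusted p = 0.000234, edgeR). YAP-TFE3 had 0 rises and 1 fall, of Mycn (median 0.14), and TFE3 had 0 rises and 1 fall (median 0.00). In CAMTA1 edgeR called 0, with 1 at an unadjusted p under 0.05 (2612 of all genes tested) and 0 by DESeq2 (640).

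Of 18 p53 target genes other than Cdkn1a, 15 rose and 1 fell in TAZ4SA (median 1.74) and the same counts held in YAP5SA (median 1.85), against 57.5% and 71.2% of all genes DE in either direction. The death receptor gene Eda2r went from 6.53 CPM in EV to 70.2 in TAZ4SA (3.43, adjusted p = 7.89e-10, edgeR) and 66.0 in YAP5SA (3.34, adjusted p = 2.78e-10, edgeR). The BH3-only gene Bbc3 (Puma) rose in YAP5SA (2.84, adjusted p = 3.68e-12, edgeR) and the antiproliferative gene Btg2 in TAZ4SA (2.40, adjusted p = 4.64e-07, edgeR). Sesn1 was the gene that fell, by -1.06 in TAZ4SA and -1.96 in YAP5SA. In TAZ-CAMTA1 8 rose and 0 fell (median 0.49), with Eda2r at 29.7 CPM, in YAP-TFE3 5 rose and 0 fell (median 0.32), and in EVsub 6 rose and 1 fell (median 0.39). The shares of all genes tested that were DE were 21.5% in TAZ-CAMTA1, 15.3% in YAP-TFE3, 22.1% in EVsub and 3.38% in TFE3. In TFE3 Bax rose (0.59, adjusted p = 0.0442, edgeR) and Plk2 fell (-0.70, adjusted p = 0.00366, edgeR). In CAMTA1 edgeR called 0 of 18, with 2 at an unadjusted p under 0.05 (2612 of all genes tested) and 0 by DESeq2 (640). Against the full-length mutants, 14 of 18 were lower and 1 higher in TAZ-CAMTA1, and 14 lower and 2 higher in YAP-TFE3, Plk2 (-1.78 and -2.79) among them. Of all genes tested 54.7% were DE in TAZ-CAMTA1 against TAZ4SA (28.1% lower) and 70.9% in YAP-TFE3 against YAP5SA (34.5% lower).

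**Figure D5:**
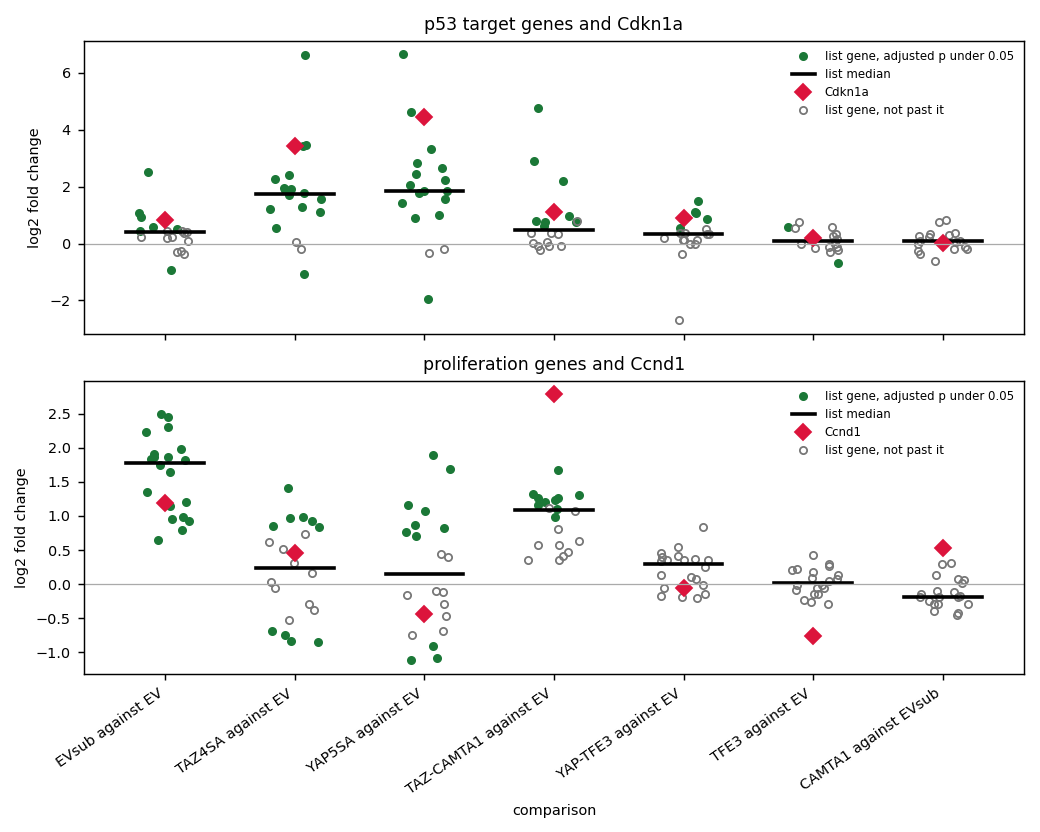
Log2 fold change of 18 p53 target genes with Cdkn1a (top) and of 20 proliferation genes with Ccnd1 (bottom) in 7 comparisons; filled circles passed an adjusted p of 0.05 (edgeR), open circles did not, bars are list medians and diamonds are Cdkn1a or Ccnd1. The p53 medians are 1.74 in TAZ4SA and 1.85 in YAP5SA, the proliferation median is 1.78 in EVsub, and Ccnd1 in TAZ-CAMTA1 (2.79) lies above every proliferation gene.

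For the 4 members with a called change of at least 1 on the log2 scale, the genes with the most similar pattern were sought among 11363 others over the 24 libraries, which fall into the 8 groups, so the correlations of log2 CPM are descriptions. Ccnd1 was nearest to Emp1 (Pearson r = 0.959, Spearman rho = 0.912), Cxcl5 (0.894 and 0.888) and Myof (0.883 and 0.854). Cdkn1a was nearest to Trim11 (0.983 and 0.896), Agpat1 (0.982 and 0.92) and Ppme1 (0.981 and 0.863). Cdkn2c was nearest to Srpx2 (0.918 and 0.906), Klf2 (0.917 and 0.916) and Hoxc5 (0.902 and 0.894), and Cdk6 to Serpinb9b (0.932 and 0.943), Acot2 (0.931 and 0.89) and Adk (0.925 and 0.885). None of these neighbours belongs to the proliferation or p53 lists. With 20 and 18 genes these lists were too short beside the 11363 genes searched for that absence to be informative.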

How the data were processed

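Counts were analyzed for 24 RNA-Seq libraries. Per the study's methods, the authors deposited raw read counts per Ensembl gene for each library, from 75 bp paired-end stranded poly(A) libraries processed in bcbio-nextgen 1.0.8 (mm10, Ensembl annotation). The methods name Hisat2 alignment and also gene-level counts from Salmon through tximport. The deposited values are whole numbers, and which of the 2 routes and which strand setting made them is not given in the sources used here. Replicates came from separate transductions, so p-values measure the spread between stable pools. The description of YAP-TFE3 replicate 3 names another replicate, so its number was taken from the title. No pair of libraries of a group agreed within sampling noise (chi-square per degree of freedom 5.67 to 118).

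Of 39017 genes, 14361 averaging at least 5 counts were tested with the edgeR 4.0.16 quasi-likelihood test (R 4.3.3, TMM), all 24 libraries in a single fit, with Benjamini-Hochberg adjustment and a threshold of 0.05. Fold changes are edgeR's. Alternatives were RLE factors, library totals (chosen after seeing the data), no filter, at least 10 counts in every library, the 2 groups alone, a minimum log2 fold change of 1, a replicate block, leaving out each library, and DESeq2 1.42.0. The 13 alternatives counted for each member leave out the minimum fold change. Gene lengths and positions came from GENCODE M21 (GRCm38), in which 37693 identifiers matched. Intervals and limits at 0 counts cover counting error only. Antisense or overlapping genes were annotated at each member except Cdkn1b and Cdkn2c.

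The members and lists were chosen with earlier results of these data known. All members are named. Of each list, the named genes are among the 2 that rose most and the 2 that fell most in a comparison, where they averaged at least 50 counts, and the genes alike in pattern are the 3 with the highest Pearson correlation of log2 CPM. Mycn was named after its values were seen. Promoters came from the RefSeq table for GRCm38.p6.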

Additional observations from a re-analysis of the deposited data

How the results depend on the processing

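The precision of every call rested on 3 libraries a group, and the standard error was largest for Ccnd1 (0.35 to 0.37 on the log2 scale). Of 693 member differences under alternatives other than leaving out a library, 640 kept their direction and their side of the threshold, 21 lost significance, 17 gained it and 15 reversed. Of 594 with a library left out, 526 kept theirs, 36 lost significance, 7 gained it and 25 reversed. For each change the cause was not tested, except that a minimum fold change makes fewer calls by construction. The replicate numbers did not pair the samples (no comparison had every pair's correlation over 0.1, and the highest mean was 0.22). With a replicate block 4 members were called in EVsub against EV (3016 of all genes tested) and 3 in YAP-TFE3 against EV (2170). Without it 5 and 2 members and 3173 and 2203 genes were called. Cdkn2c was gained in YAP-TFE3 (0.43, adjusted p = 0.0308, edgeR), and Ccnd2 was lost in EVsub (adjusted p = 0.0562, edgeR, range 0.00911 to 0.198). The block reversed Cdkn1a in CAMTA1 against EVsub (-0.01).

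With a log2 fold change of at least 1 also required, 1 member was called in EVsub, 2 in TAZ4SA, 2 in YAP5SA and 3 in TAZ-CAMTA1, all against EV. There were 0 in YAP-TFE3 and in TFE3 against EV and 0 in CAMTA1 against EVsub. The direct comparisons had 3 in TAZ-CAMTA1 against TAZ4SA and 2 in YAP-TFE3 against YAP5SA. Against EVsub there were 2 in TAZ4SA and 4 in YAP5SA. Over all genes tested the same rule called 961, 3525, 5683, 1123 and 877 in EVsub, TAZ4SA, YAP5SA, TAZ-CAMTA1 and YAP-TFE3 against EV (3173, 8253, 10220, 3088 and 2203 without it). It called 139 in TFE3 against EV (485 without it), 151 in CAMTA1 against EVsub (313), 3019 in TAZ-CAMTA1 against TAZ4SA (7854), 5606 in YAP-TFE3 against YAP5SA (10184), 2981 in TAZ4SA against EVsub (7639) and 5091 in YAP5SA against EVsub (9880). In a fit of the 2 groups alone 3 members and 1683 genes were called in EVsub against EV (3173 genes in the fit of all libraries). Against EV there were also 3 members and 6019 genes in TAZ4SA, 1 and 2306 in YAP-TFE3 and 1 and 1512 in TFE3. TAZ4SA against EVsub had 4 members and 4105 genes, and CAMTA1 against EVsub had 22 genes. Without the filter 1 member and 642 genes were called in TFE3 against EV, and 674 genes in CAMTA1 against EVsub, where DESeq2 called 640.

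Library totals in place of TMM reversed Ccnd3 (-0.03) and Cdk2 (-0.11) in TAZ4SA against EV, Cdk4 (-0.22) and Cdkn1b (-0.28) in YAP5SA against EV, Ccnd3 in TAZ-CAMTA1 against TAZ4SA (0.04), Cdkn1b in YAP-TFE3 against YAP5SA (0.28), and Ccnd2 (-0.18) and Cdk4 (-0.31) in YAP5SA against EVsub. None of these differences had been called with TMM, and with library totals Cdk4 and Cdkn1b in YAP5SA against EV (adjusted p = 0.0479 and 0.0481, edgeR), Cdkn1b in YAP-TFE3 against YAP5SA (0.0415) and Cdk4 in YAP5SA against EVsub (0.00641) passed, while the median gene moved by -0.37 in YAP5SA against EV. The share of DE genes that were higher went from 48.5% to 62% in TAZ-CAMTA1 against TAZ4SA, from 51.4% to 67.6% in YAP-TFE3 against YAP5SA, from 52.1% to 37.8% in TAZ4SA against EVsub and from 49.3% to 31% in YAP5SA against EVsub. A minimum of 10 counts in every library reversed Cdk2 in TAZ4SA against EV (-0.00), Ccnd3 in TAZ-CAMTA1 against EV (-0.01), Cdkn1b in YAP-TFE3 against YAP5SA (0.01) and Cdk4 in YAP5SA against EVsub (-0.00), and RLE factors and DESeq2 reversed Ccnd3 in TAZ-CAMTA1 against EV (-0.00 in both).

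With a library left out, 1 to 4 members were called in EVsub against EV and 0 to 2 in YAP-TFE3 against EV (0 without EV replicate 3 or YAP-TFE3 replicate 1). Genes called ranged from 1971 to 3668 in EVsub, 2010 to 3198 in TAZ-CAMTA1, 1133 to 2266 in YAP-TFE3 and 192 to 286 in TFE3 against EV, and from 72 to 710 in CAMTA1 against EVsub. Log2 differences that changed sign ranged from -0.17 to 0.07 for Ccnd3 in EVsub against EV. In TAZ4SA against EV they were -0.18 to 0.82 for Ccnd1, -0.08 to 0.32 for Ccnd3 and -0.03 to 0.15 for Cdk2. Cdkn1b in YAP5SA against EV ranged from -0.01 to 0.23, and Ccnd3 in TAZ-CAMTA1 against EV from -0.04 to 0.07. In YAP-TFE3 against EV the ranges were -0.25 to 0.31 for Ccnd1, -0.00 to 0.14 for Ccnd2 and -0.07 to 0.15 for Cdkn1b. In CAMTA1 against EVsub they were -0.34 to 0.21 for Cdkn1a and -0.19 to 0.07 for Cdkn2c. In TAZ-CAMTA1 against TAZ4SA they were -0.30 to 0.10 for Ccnd3, -0.10 to 0.14 for Cdk4 and -0.05 to 0.21 for Cdk6. Cdkn1b in YAP-TFE3 against YAP5SA ranged from -0.16 to 0.03, Ccnd3 in TAZ4SA against EVsub from -0.02 to 0.38, and Cdkn1b in YAP5SA against EVsub from -0.13 to 0.09.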
